A study of Homo sapiens with 8 samples.

Results

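The baseline described here is the transcriptome of SK-N-MC cells that had received a control siRNA. It rests on the 4 samples titled as control siRNA, replicates 1 to 4, of 8 arrays in the whole series. SK-N-MC is an established Ewing sarcoma cell line. The 4 control cultures were given a non-targeting siRNA at 10 nM with the transfection reagent Viromer Blue and were collected after 72 h, and the other 4 cultures received siRNAs against YAP1 and TAZ and are not used here. The cultures were separate but were plated, transfected and collected side by side, so the spread between them is that of 1 experiment. Transfection itself is common to all 4 cultures, and untransfected cells were not analysed here. All values come from bulk RNA of 1 cell line, in which a change in cell state and a change in RNA per cell cannot be told apart.

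Ewing sarcoma arises in bone or soft tissue, mostly in the young, and carries a fusion of EWSR1 with an ETS gene, most often FLI1, that encodes an aberrant transcription factor. The EWS-FLI1 protein opens chromatin at GGAA repeats and activates genes there, and it also represses many genes of mesenchymal differentiation. The cells have been likened to both neural crest and mesenchymal stem cells, which is why transcription factors, receptors, matrix, neural and mesenchymal genes are described in turn.

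Each value is a log2 signal for a transcript cluster, a set of probes that together read 1 locus, as normalised by the submitters. Clusters annotated with 1 gene symbol gave 22411 genes, 17154 of them protein-coding, and a gene with several clusters is represented by the one with the highest mean over the 4 arrays. Gene means ran between 2.57 and 19.87 with a median of 5.02, and 10.0% of genes had a mean above 9.49. The rank of a gene is the percentage of the 22411 genes with a lower mean. Signal depends on each gene's probes as well as on its RNA and is not scaled to transcript length, so a rank places a gene against all genes and does not order transcript numbers. The files used here hold no background probes, so the 359 measured protein-coding olfactory receptor genes, which most tissues keep silent, stood in for background. Their median was 3.75, and the 95th percentile of their means, 4.83, is called the olfactory receptor level below. A gene at or below it was not told apart from that background, which does not show that its RNA was absent. In all, 11883 genes lay above it, 53.0% of the 22411, and 9971 protein-coding genes did, 58.1% of the 17154. These shares are the background for every list below.

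**Figure D1:**
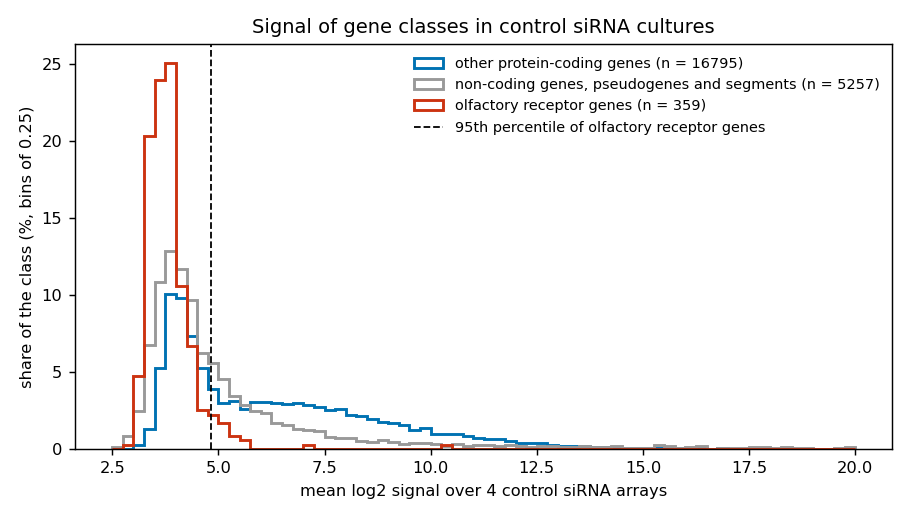
Distribution of the mean log2 signal over the 4 control siRNA arrays (x axis) as a share of each gene class in percent (y axis, bins of 0.25) for olfactory receptor genes, other protein-coding genes and the remaining genes, with the olfactory receptor level as a dashed line. The 359 olfactory receptor genes crowd around 3.75, while the other protein-coding genes extend far to the right of the line at 4.83.

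Control replicate 4 stood apart from replicates 1 to 3, and replicate 3 was the closest to it. Pearson correlations across the 22411 genes, which are not independent replicates, were 0.997 to 0.998 among replicates 1, 2 and 3. With replicate 4 they rose from 0.9927 for replicate 1 to 0.9936 for replicate 2 and 0.9951 for replicate 3. Among genes above the olfactory receptor level, replicate 4 was the lowest of the 4 arrays in 45.4% and the highest in 23.1%. The median of all genes differed little, at 5.0, 5.01, 5.04 and 5.07 in replicates 1 to 4. The 95th percentile of the olfactory receptors was 4.78, 4.71, 4.76 and 4.98, highest in replicate 4. The groups of genes that moved with replicate 4 are described at the end. Over the 98 genes given array by array, leaving replicate 4 out moved the rank by a median of 0.136 percentage points and by at most 5.19, for MIR3661.

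Transcription and chromatin factors tied to Ewing sarcoma ranked high as a list. Of 24 measured members, 20 lay above the olfactory receptor level, 83.3% against 53.0% of all genes and 58.1% of protein-coding genes. With the 99th percentile of the olfactory receptors as the level, 18 did. The list was chosen with earlier results of these data known, so these counts only describe these cultures. Of the same 24, 10 were among the 10.0% of genes with the highest means, and the list's median rank was 87.9. NR0B1, a nuclear receptor gene that EWS-FLI1 activates, was not analysed here. SOX2, a factor of neural progenitors and stem cells, had a log2 signal of 13.79, 13.70, 13.82 and 14.01 in replicates 1 to 4, a rank of 99.02. KDM1A, the histone demethylase LSD1, had 13.76, 13.64, 13.63 and 13.45, a rank of 98.9. The histone methyltransferase EZH2 had 11.59, 11.54, 11.62 and 11.70 and ranked at 96.6. The 4 arrays lay close together for all 3 genes, and replicate 4 was the highest for SOX2 and EZH2 and the lowest for KDM1A.

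PAX7, a paired-box factor of muscle satellite cells and neural crest and a marker of Ewing sarcoma, had 11.65, 11.44, 11.30 and 11.04, a rank of 96.0. BCL11B, a zinc-finger repressor best known from T cells and neurons, had 11.05, 11.16, 11.20 and 11.14. NKX2-2, a homeobox factor of the ventral neural tube that is used as an Ewing marker in pathology, had 9.26, 9.14, 9.28 and 9.30. PAX7 spread more between the cultures, with an SD of 0.26 against 0.06 for BCL11B and 0.07 for NKX2-2. MYC had 10.98, 10.81, 10.80 and 10.53 and ranked at 94.6, while its relative MYCN had 4.43, 4.40, 4.38 and 4.31, below the olfactory receptor level in every array.

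The fusion partners were both above the level. EWSR1, which encodes an RNA-binding protein of nearly all cells, had 10.68, 10.58, 10.46 and 10.38 and ranked at 93.8. FLI1, the ETS factor of blood and endothelium, had 6.21, 6.15, 6.16 and 6.21 and ranked at 63.7, and its 4 arrays almost coincided. A cluster's value covers probes along the gene, so the fusion transcript and the transcripts of the unrearranged genes were not separated. The other ETS genes that can replace FLI1 in Ewing fusions were lower: ETV1 ranked at 59.2, FEV at 36.2, ERG at 29.1 and ETV4 at 16.2. ERG had 4.09, 4.16, 4.25 and 4.18, all at background. GLI1, the Hedgehog effector that EWS-FLI1 can activate directly, had 5.06, 5.0, 5.22 and 5.02, just above the olfactory receptor level.

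Genes known to be activated by EWS-FLI1 were above the level without exception among the 26 measured, and 24 passed the 99th percentile of the olfactory receptors. Their median rank was 89.1, with 12 members among the highest 10.0%. CCND1, the cyclin of the G1 phase, had 15.31, 15.27, 15.24 and 15.07, a rank of 99.5. The metalloreductase STEAP1, a cell-surface antigen, had 13.41, 13.34, 13.25 and 13.84, with replicate 4 well above the others. CD99, the membrane glycoprotein stained for diagnosis, had 12.61, 12.56, 12.52 and 12.55. A second CD99 cluster averaged 10.98, so both of its clusters lay far above the level.

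LIPI, a phosphatidic acid-selective lipase, had 11.42, 11.38, 11.23 and 11.34. PRKCB, a protein kinase C, had 11.17, 11.19, 11.13 and 10.95. The neuropeptide Y receptor NPY1R had 11.68, 11.58, 11.45 and 11.66. These 3 genes ranked between 95.5 and 96.5, with SDs of 0.08 to 0.11. CAV1 of the caveolar coat ranked at 98.3 and the pregnancy-associated protease PAPPA at 97.9. At the lower end stood FATE1, a cancer-testis antigen, at 53.4 and GLI1 at 50.7. The list was drawn from general knowledge of Ewing sarcoma cell lines and chosen with earlier results of these data known. Its high ranks therefore describe these cultures and are no independent evidence on the fusion's action.

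Of 10 genes known to be repressed by EWS-FLI1, 6 lay above the level, 60.0% against 53.0% of all genes and 58.1% of protein-coding genes. The median rank was 51.7, and 4 members passed the 99th percentile of the olfactory receptors. TGFBR2, the type II TGF-beta receptor, had 3.60, 3.60, 3.56 and 3.75 and ranked at 6.8. THBS1, the matrix protein thrombospondin 1, had 3.91, 3.94, 3.92 and 4.00. The Wnt antagonist DKK1 ranked at 17.7 and the receptor tyrosine kinase antagonist SPRY1 at 7.6, so 4 members were at background. The 6 above the level were led by FN1, fibronectin, and LOX, the collagen cross-linking lysyl oxidase, which ranked at 91.8 and 85.4. The others were FOXO1 at 71.3, ZYX at 62.3, CDKN1A at 53.5 and IGFBP3 at 49.9. LOX had 8.71, 8.75, 8.44 and 8.75, with replicate 3 below the rest.

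**Figure D2:**
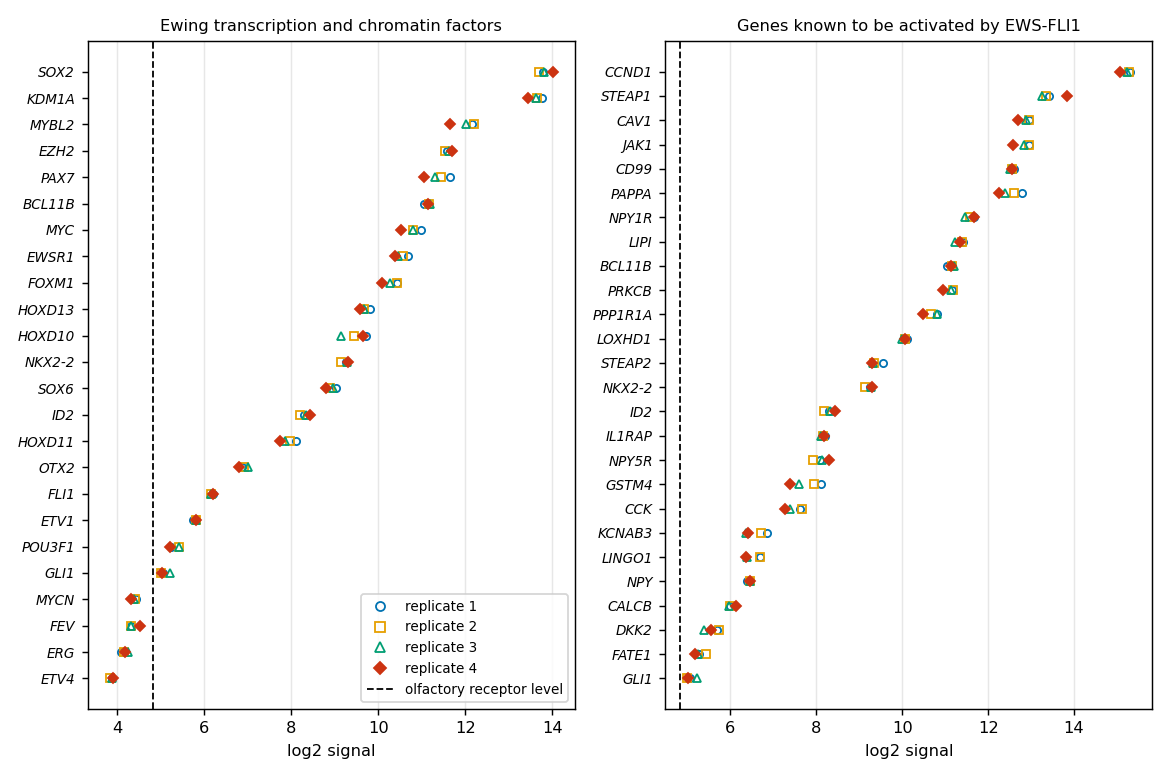
Log2 signal (x axis) of the 24 measured Ewing transcription and chromatin factors (left) and the 26 measured genes known to be activated by EWS-FLI1 (right), one symbol per control siRNA array, with the olfactory receptor level as a dashed line. Only MYCN, FEV, ERG and ETV4 lie left of the line, and for most genes the 4 arrays nearly overlap.

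Neural and neural crest factors ranged from a few of very high rank to many at background. Of 23 measured, 12 lay above the level, 52.2% against 53.0% of all genes and 58.1% of protein-coding genes, and the median rank was 51.9. The list as a whole was thus near the share of all genes. Its highest member was SOX2, already described with the Ewing factors. TFAP2B, a neural crest factor of the AP-2 family, had 13.89, 13.79, 13.69 and 13.48, a rank of 98.9. POU3F2, the neuronal POU factor BRN2, had 11.47, 11.48, 11.51 and 11.69. ZIC2, a zinc-finger factor of the dorsal neural tube, had 10.57, 10.48, 10.45 and 10.44. Replicate 4 was the lowest array for TFAP2B and the highest for POU3F2. REST, the repressor of neuronal genes in non-neuronal cells, ranked at 88.2 and TFAP2A, a second AP-2 factor, at 81.6.

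Factors that define the sympathetic and Schwann lineages were mostly low. PHOX2A, a homeobox factor required in sympathetic neurons, had 3.31, 3.25, 3.23 and 3.32 and ranked at 1.3. HAND2 and GATA3, also of that lineage, were moderately above the level, HAND2 with 5.97, 5.98, 6.0 and 5.98 and GATA3 with 5.68, 5.62, 5.67 and 5.65. The arrays of HAND2 nearly coincided, with an SD of 0.01. SOX10 and FOXD3, factors of migrating neural crest, ranked at 25.9 and 25.2, and SOX1, of early neural plate, at 4.9.

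Of 26 measured factors of mesoderm and its derivatives, 12 lay above the level, a share of 46.2% with a median rank of 34.6. With the 99th percentile of the olfactory receptors as a stricter level, 5 did. TWIST1, a basic helix-loop-helix factor of mesenchyme and cranial neural crest, had 10.92, 10.74, 10.85 and 11.04 and was the sole member among the highest 10.0%. PRRX1, a limb and craniofacial mesenchyme factor, had 6.92, 6.95, 6.98 and 6.91. RUNX2 of bone ranked at 52.5 and SOX9 of cartilage at 52.3. MYOD1, which sets muscle identity, had 3.52, 3.54, 3.55 and 3.69, and its relative MYF5 ranked at 0.7. MYOG, a later muscle factor, lay at 47.6, on the border of the level. Among 21 factors of other lineages 6 lay above the level, and 2 above the stricter one. The B-cell and mesenchymal factor EBF1 ranked at 73.6, and SPI1, the myeloid factor PU.1, had 3.87, 3.77, 3.79 and 3.77.

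The promoters of 4 genes show how different the start-site sequences of these factors were at both ends of the ranks. Each runs over 300 bases, 250 before and 50 after the start given by RefSeq for GRCh38.p14, 5′ to 3′ on the gene's strand, and capitals mark each CG dinucleotide. NKX2-2 (chr20:21522640-21522939, minus strand, rank 88.8) held 35 CG and TFAP2B (chr6:50818621-50818920, plus strand, rank 98.9) held 5. MYF6, a factor of muscle (chr12:80707384-80707683, plus strand, rank 12.3), held 1, and PHOX2A (chr11:72244127-72244426, minus strand, rank 1.3) held 34.
NKX2-2: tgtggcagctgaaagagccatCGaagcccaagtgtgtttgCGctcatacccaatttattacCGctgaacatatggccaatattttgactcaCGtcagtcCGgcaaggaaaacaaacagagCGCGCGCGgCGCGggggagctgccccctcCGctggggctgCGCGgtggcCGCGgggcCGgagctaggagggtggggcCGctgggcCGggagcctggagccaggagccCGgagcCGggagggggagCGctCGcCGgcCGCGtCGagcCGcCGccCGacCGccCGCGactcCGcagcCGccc
TFAP2B: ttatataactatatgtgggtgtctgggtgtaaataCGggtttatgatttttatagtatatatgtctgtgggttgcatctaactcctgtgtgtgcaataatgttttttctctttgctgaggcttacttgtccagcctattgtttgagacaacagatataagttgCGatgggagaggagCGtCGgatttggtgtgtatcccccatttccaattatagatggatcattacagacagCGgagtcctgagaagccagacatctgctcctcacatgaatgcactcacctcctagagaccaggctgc
MYF6: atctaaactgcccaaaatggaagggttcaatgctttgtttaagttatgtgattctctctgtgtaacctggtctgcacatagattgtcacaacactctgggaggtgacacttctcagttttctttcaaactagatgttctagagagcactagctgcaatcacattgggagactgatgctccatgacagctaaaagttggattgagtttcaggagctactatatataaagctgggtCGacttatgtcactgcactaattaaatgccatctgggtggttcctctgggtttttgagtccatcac
PHOX2A: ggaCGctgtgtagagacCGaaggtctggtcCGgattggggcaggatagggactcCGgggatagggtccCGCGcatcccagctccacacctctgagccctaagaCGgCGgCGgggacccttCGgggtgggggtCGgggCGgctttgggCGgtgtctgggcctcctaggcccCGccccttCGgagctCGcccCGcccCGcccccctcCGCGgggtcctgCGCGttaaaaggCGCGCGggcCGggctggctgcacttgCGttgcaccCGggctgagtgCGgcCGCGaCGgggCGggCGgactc

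A CG-rich start site thus occurred with both a high and a very low rank, and a CG-poor one likewise. Over the lineage factors with a promoter sequence, the 38 above the level had a median of 23.5 CG and the 34 at or below it 20.5. For comparison, 13936 protein-coding genes were sorted by mean signal into 10 bands of equal size. The median CG count was 5 in the lowest band, 8 in the next, 17 in the fourth and 23 in the fifth. From the sixth band to the highest it changed little, between 26 and 28. The letters TATAAA on either strand (TTTATA when read on the given strand) were in 18.6% of promoters of the lowest band, 3.95% of the ninth and 7.17% of the highest, against 9.24% of all 13936. GGAAGGAA, a pair of the GGAA units that EWS-FLI1 binds in longer repeats, or TTCCTTCC for the other strand, was in 3.52% of all promoters. It was in 1 of 20 promoters of EWS-FLI1-activated genes, that of CAV1, and in 1 of 19 of the Ewing factors, that of ETV1. A match describes letters in this window, and distant enhancers lay outside it.

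HOX genes, which encode homeobox factors of position along the body axis, were mostly above the level. Of 39 HOX genes 25 were measured, and 14, among them all HOXA genes but HOXA2, were not analysed here. Of those measured, 19 were above the level, 76.0%, with a median rank of 64.6. HOXD13, the most posterior gene of its cluster and a known feature of Ewing sarcoma, had 9.82, 9.67, 9.67 and 9.59. HOXD10 had 9.72, 9.44, 9.15 and 9.65, with replicate 3 lowest, and HOXC6 had 9.68, 9.57, 9.52 and 9.21, with replicate 4 lowest. HOXC13 had 8.42, 8.77, 8.68 and 8.52. The most anterior genes measured were at background, HOXB1 at a rank of 1.4 and HOXA2 at 1.6, and HOXD12 lay at 28.0 between higher neighbours.

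Receptor tyrosine kinases were above the level in 21 of 40 measured genes, 52.5%, with a median rank of 54.3. ERBB2 and EPHB2 were among those not analysed here. DDR2, a collagen receptor, had 12.64, 12.48, 12.29 and 12.03 and ranked at 97.7. EPHB3, an ephrin-B receptor, had 12.22, 12.12, 11.82 and 11.75. The ephrin-A receptor EPHA3 had 9.78, 9.75, 9.41 and 9.32. In all 3 genes replicates 1 and 2 were above replicates 3 and 4. EPHA4, EPHA7 and EPHB4 ranked between 83.5 and 87.6, so several Eph receptors were among the high members.

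IGF1R, the insulin-like growth factor receptor that EWS-FLI1 cells depend on, had 9.84, 9.73, 9.25 and 9.32 and ranked at 90.2. KIT, the stem cell factor receptor, had 9.57, 9.58, 9.23 and 9.39. FGFR1 had 8.07, 8.07, 7.96 and 7.94. As with DDR2, EPHB3 and EPHA3, replicates 1 and 2 were the higher pair. The orphan receptor ROR1 ranked at 86.3. ALK, a kinase of the developing nervous system, had 6.87, 6.74, 6.53 and 6.59, and MET, the hepatocyte growth factor receptor, had 6.92, 6.76, 6.77 and 6.65, both clearly above the level.

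Several widely studied receptors were at background. EGFR had 3.75, 3.87, 3.80 and 3.90, and PDGFRA, a receptor of mesenchymal progenitors, had 4.04, 4.02, 4.04 and 4.12. PDGFRB, of pericytes and fibroblasts, had 4.85, 4.84, 4.86 and 4.91, on the level itself. The vascular receptors KDR and FLT1 ranked at 21.9 and 8.4, and the neurotrophin receptors NTRK2 and NTRK3 at 26.2 and 15.004. RET ranked at 25.04 and AXL at 39.3.

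Of 48 other receptors measured, 38 lay above the level, 79.2%, with a median rank of 75.6. The Wnt receptor FZD3 had 11.07, 11.32, 11.19 and 11.06. LIFR, the leukaemia inhibitory factor receptor, had 9.77, 9.75, 9.79 and 10.00, with replicate 4 above the other 3 arrays, which nearly coincided. NGFR, the low-affinity neurotrophin receptor of neural crest cells, had 8.28, 8.07, 7.82 and 7.79. The interferon receptor IFNAR1 ranked at 92.8 and the BMP receptor BMPR2 at 92.0. CXCR4, a chemokine receptor linked to metastasis, had 4.48, 4.51, 4.47 and 4.41. Its relative ACKR3 ranked at 11.2 and the double-stranded RNA sensor TLR3 at 10.0. TGFBR2, at background, differed from its partner TGFBR1, which ranked at 63.4.

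Surface antigens were above the level in 20 of 28 measured genes. Beta-2-microglobulin B2M ranked at 98.5, the adhesion molecule ALCAM at 93.3 and the integrin-associated CD47 at 87.5. ENG, the TGF-beta co-receptor endoglin, had 9.94, 9.74, 9.30 and 9.01, a comparatively wide spread with an SD of 0.42. HLA-C and HLA-B ranked at 69.9 and 63.8. PROM1 (CD133), the PD-1 ligand CD274 and the hyaluronan receptor CD44 were at background, at 29.8, 20.03 and 31.1.

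Matrix genes ranked low as lists, with a few members of high rank. Of 29 collagen genes, 11 lay above the level, 37.9%, with a median rank of 45.7, and 7 lay above the stricter one. COL1A2, a chain of type I collagen, had 8.03, 7.89, 7.67 and 7.72 and COL1A1, its partner, had 6.24, 6.24, 6.02 and 6.02. Replicates 1 and 2 were above replicates 3 and 4 for both chains. COL5A2 of type V collagen ranked at 75.2 and COL4A1 and COL4A2, the main chains of basement membrane collagen, at 68.7 and 64.9. None was among the highest 10.0%, and COL12A1 and COL10A1 lay at 17.1 and 6.2.

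Of 42 matrix glycoproteins and proteoglycans, 15 lay above the level, 35.7%. SPARC, a collagen-binding matricellular protein, had 12.06, 12.11, 11.69 and 11.87. LAMB1 and LAMC1, the beta 1 and gamma 1 chains of laminin, had 11.23, 11.18, 11.09 and 11.34, and 9.20, 9.20, 9.03 and 8.99. FN1 had 10.12, 10.05, 9.72 and 9.78. The alpha chains measured, LAMA1, LAMA2 and LAMA4, were at background with ranks of 20.8, 23.3 and 34.4, and LAMA3 and LAMA5 were not analysed here. DCN, the proteoglycan decorin, had 7.81, 7.90, 7.82 and 8.34, with replicate 4 above the rest, and a second DCN cluster averaged 5.28. Tenascin C, TNC, ranked at 57.2, and versican VCAN and periostin POSTN at 12.9 and 17.4.

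Genes that make or remodel matrix were above the level in 15 of 30. PLOD2, a collagen lysyl hydroxylase, had 10.29, 10.22, 10.32 and 10.45. The prolyl hydroxylase subunit P4HA1 ranked at 87.5 and the membrane protease MMP14 at 82.1, while MMP1 and MMP3 ranked at 19.0 and 9.3. Of 24 integrins 7 lay above the level and 4 above the stricter one. ITGB1, the beta 1 subunit shared by many receptors of matrix, had 11.77, 11.73, 11.67 and 12.06, and its 2 other clusters averaged 4.31 and 3.94. ITGAV, a partner in fibronectin and vitronectin receptors, had 9.93, 9.83, 9.73 and 9.97, and ITGA5, the fibronectin receptor subunit, ranked at 87.0. ITGB5 at 83.6 was the remaining high member, and ITGA6, ITGA2 and ITGA1 lay between 48.4 and 49.7, just above the level.

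**Figure D3:**
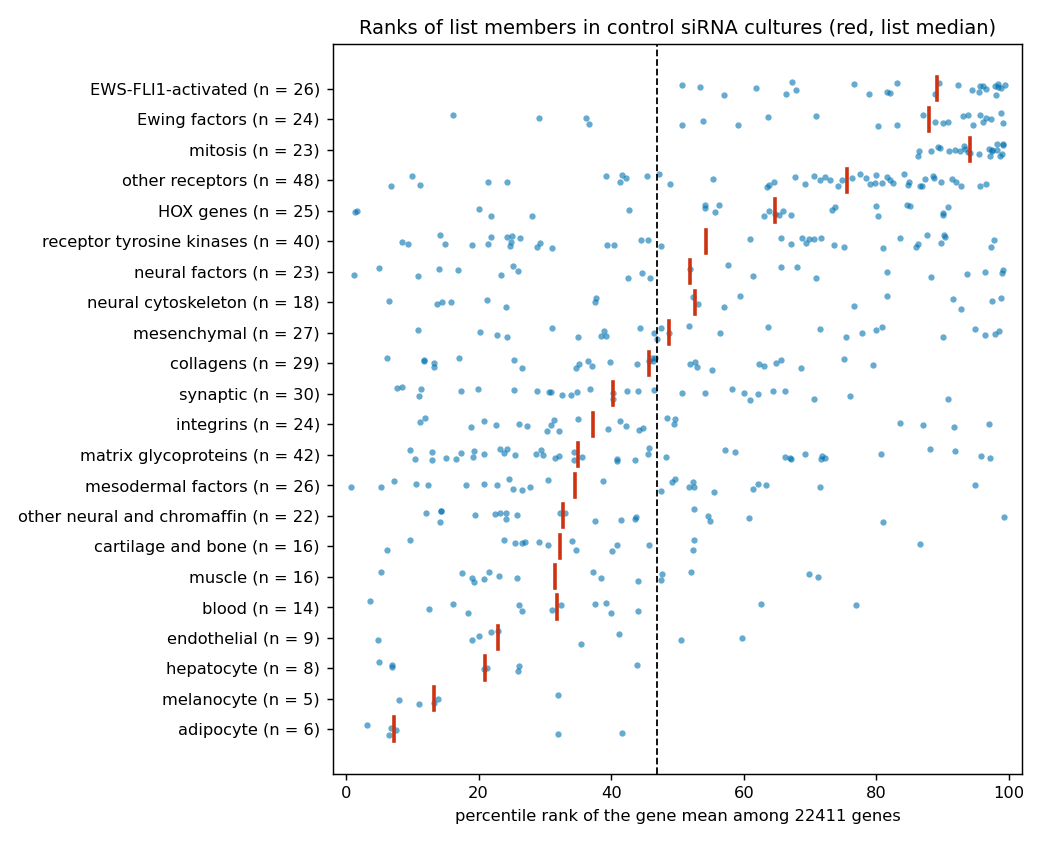
Rank of each measured list member among 22411 genes (x axis, percent of genes with a lower mean over the 4 control siRNA arrays), one point per gene and one row per list, with the list's median as a red bar and the rank of the olfactory receptor level as a dashed line. Medians of the lists plotted run between 94.1 for mitosis genes and 7.2 for adipocyte genes, and most lineage lists have single members far to the right of their median.

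Genes of the neural cytoskeleton were above the level in 10 of 18, and 4 were among the highest 10.0%. BASP1, a membrane protein of growth cones, had 13.33, 13.42, 13.48 and 13.61. MAPT, which encodes tau, had 10.42, 10.20, 10.14 and 10.06, from a cluster on an alternative haplotype. Its other cluster averaged 9.36, with which MAPT ranked at 89.4 and was no longer among the highest 10.0%. TUBA1A, the alpha tubulin of developing neurons, ranked at 97.5 and MARCKS at 91.5. Another alpha tubulin, TUBA1B, had a mean of 19.26, and whether its RNA was also read by the TUBA1A probes was not tested. TUBB3 and STMN1 were not analysed here. Other genes used as neuronal markers were at background: STMN2 had 3.65, 3.60, 3.61 and 3.61, DCX ranked at 21.3, INA at 15.8 and NEFL at 24.1. GAP43 of growth cones and MAP2 of dendrites lay at 57.1 and 52.3.

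Synaptic genes were above the level in 11 of 30 measured, 36.7%, with a median rank of 40.3. SLC18A3, the vesicular acetylcholine transporter, had 9.83, 9.73, 9.54 and 9.70 and ranked at 90.8. CHAT, the enzyme that makes acetylcholine and whose gene surrounds SLC18A3, ranked at 40.3, and the choline transporter SLC5A7 at 7.7. SV2A, a synaptic vesicle glycoprotein, had 7.35, 7.46, 7.36 and 7.47, and the glutamate transporter SLC17A7 had 6.87, 7.01, 6.78 and 6.80. SNAP25 and SYT1 of the release machinery ranked at 58.2 and 54.1. Glutamate receptor genes GRIA1, GRIA2, GRIN1 and GRIN2A were all at background, as were GAD1 and GAD2, the enzymes that make GABA.

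Of 22 other neural and chromaffin genes, 6 lay above the level and 3 above the stricter one. UCHL1, the neuronal ubiquitin hydrolase PGP9.5, had 14.45, 14.40, 14.34 and 14.06 and ranked at 99.2. ENO2, neuron-specific enolase, had 8.11, 8.01, 8.08 and 7.85. NCAM1 (CD56) had 5.36, 5.35, 5.35 and 5.51, with replicate 4 apart. The enzymes of catecholamine synthesis TH and DBH ranked at 32.2 and 43.7, and chromogranin A, CHGA, had 4.43, 4.40, 4.39 and 4.42. Of 9 glial genes 2 lay above the level, S100B at a rank of 67.4 and SLC1A3 at 58.8.

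Mesenchymal genes were above the level in 16 of 27, 59.3%, a share near that of all protein-coding genes, and 5 were among the highest 10.0%. CDH11, a cadherin of mesenchyme, had 13.09, 12.98, 12.84 and 12.99. The annexins ANXA2 and ANXA1 had 12.76, 12.79, 12.45 and 12.12, and 11.58, 11.50, 11.70 and 11.33, with replicate 4 lowest in both. VIM, the intermediate filament vimentin, had 7.95, 8.01, 7.74 and 7.77, a rank of 79.9. N-cadherin CDH2 had 4.00, 4.03, 3.99 and 4.07 and was at background, as were S100A4 and S100A6 at 20.2 and 10.9 and the smooth muscle gene TAGLN at 35.1. LGALS1, galectin 1, lay at 46.5, on the border of the level.

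Of 16 cartilage and bone genes 3 lay above the level: RUNX2, SOX9 and ALPL, the tissue-nonspecific alkaline phosphatase, which had 8.89, 8.96, 8.65 and 8.87 and alone passed the stricter level. Of 16 skeletal muscle genes 5 did, and 2 passed the stricter level, with the slow troponin gene TNNT1 at a rank of 71.2 and skeletal actin ACTA1 at 69.8. Epithelial genes were above the level in 9 of 18 and above the stricter one in 4. KRT18 had 9.07, 9.16, 8.86 and 8.23 and OCLN, a tight junction protein, had 8.78, 8.75, 8.64 and 8.62. KRT8, the usual partner of KRT18, ranked at 67.8 and EPCAM at 55.4, while E-cadherin CDH1 and KRT19 were at background with 20.6 and 29.3.

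Defining genes of other cell types were mostly at background. Of 14 blood genes 2 lay above the level, CD79A of the B-cell receptor, with 7.86, 7.58, 7.54 and 7.08, and CD68 at a rank of 62.6, and the pan-leukocyte gene PTPRC ranked at 39.9. Of 9 endothelial genes EGFL7 and CLDN5 were above it, EGFL7 alone at the stricter level, and PECAM1 ranked at 4.9. None of the 5 melanocyte, 8 hepatocyte and 6 adipocyte genes measured was above the olfactory receptor level. The labelled cell type was checked against 12 Ewing marker genes, of which NR0B1 was not analysed here. CD99, NKX2-2, BCL11B, STEAP1, PRKCB, LIPI, NPY1R, PAX7 and CCND1 ranked between 88.8 and 99.5, FLI1 ranked at 63.7 and GLI1 at 50.7.

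Proliferation and housekeeping lists had every measured member above the level. The 22 DNA replication genes had a median rank of 92.3 and the 23 mitosis genes one of 94.1. TOP2A, the topoisomerase of dividing cells, had 14.15, 14.10, 14.16 and 14.13, and MKI67, which encodes the Ki-67 antigen, had 12.18, 12.01, 11.80 and 11.82. The 13 cholesterol synthesis genes had a median rank of 88.3, led by the squalene epoxidase SQLE at 99.4. Of 21 interferon-stimulated genes 9 lay above the level, with IFI44 at 83.2 and ISG15 at 4.4. Of the genes targeted in the other 4 cultures, YAP1 had 7.64, 7.72, 7.71 and 7.66 and WWTR1, which encodes TAZ, had 6.52, 6.39, 6.42 and 6.57 here, and 14 of 19 genes tied to YAP and TAZ were above the level.

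The protein-coding gene of highest mean was SLC44A4, a choline transporter-like protein of epithelia, with 19.42, 19.48, 19.59 and 19.49. That value came from 1 of its 8 clusters, placed on an alternative haplotype, and the other 7 averaged between 4.08 and 4.11, so it is not read as expression of the gene. Next were the alpha tubulin TUBA1B with 19.32, 19.32, 19.29 and 19.12, and the elongation factor EEF1A1 with 18.99, 18.99, 18.96 and 18.79. Further members of the 20 highest were TUBB, the ribosomal proteins RPS16, RPS15, RPS28 and RPL19, the ferritin FTL, actin ACTG1, the chaperones HSP90AB1 and CALR, and the histones H2AC20 and H1-4. Many of these have near-identical relatives or pseudogenes whose RNA the same probes may read, so their values are uncertain as values of single genes. The arrays' maxima were 19.93, 19.93, 19.90 and 19.73, reached by 3, 3, 3 and 6 genes, and 19 genes followed the differences between these maxima to within 0.01. TUBA1B and EEF1A1 were among these 19, so replicate 4 read lower for them by the same amount as the maximum did. Of the 46 genes with a mean above 17, 6 followed the maxima in this way.

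The spread between cultures was small for most genes. The SD over the 4 arrays had a median of 0.11 among the 11883 genes above the olfactory receptor level and exceeded 0.25 in 1484 of them, 12.5%. Without replicate 4 the median was 0.08 and 595 genes exceeded 0.25. Among protein-coding genes alone, 749 exceeded 0.25 over the 4 arrays. The highest or lowest array stood far from the other 3 by Dixon's ratio, past its 95% critical value, in 836 genes, 7.04%, and in 560 of those the array was replicate 4. In the first principal component of the genes' deviations, which held 74.4% of their variance, the arrays had loadings of -0.47, -0.34, -0.0035 and 0.81 in replicates 1 to 4.

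**Figure D4:**
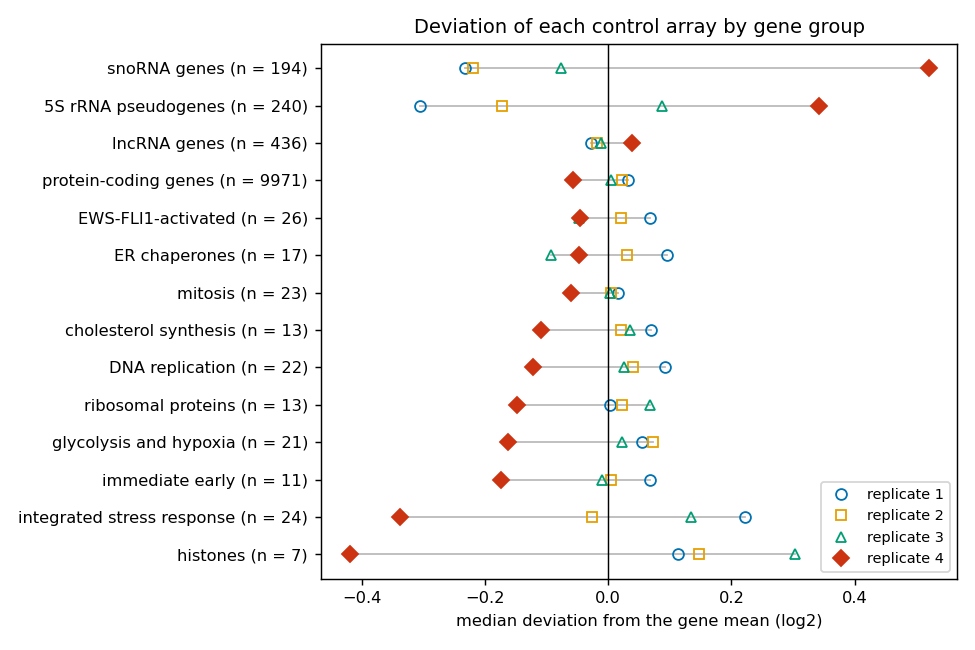
Median deviation of each control siRNA array from the gene means (x axis, log2) over the members of a gene group that lie above the olfactory receptor level, one symbol per array and one row per group. Replicate 4 lies farthest right for snoRNA genes and 5S rRNA pseudogenes and farthest left for integrated stress response and histone genes.

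Genes of small nucleolar RNAs and 5S ribosomal RNA pseudogenes were mostly highest in replicate 4. Of 240 small nucleolar RNA (snoRNA) genes, which guide chemical modification of ribosomal RNA, 194 lay above the level, and their median signals were 8.46, 8.46, 8.55 and 9.38 in replicates 1 to 4. Replicate 4 was the highest array in 158 of the 194, 81.4%, against 23.1% of all genes above the level. Pseudogenes of 5S ribosomal RNA were likewise highest in replicate 4, with medians of 5.92, 6.03, 6.27 and 6.57 over 240 genes and that array highest in 179. Of 313 miRNA genes above the level, replicate 4 was the highest array in 138, 44.1%. Many of the 5S copies are near-identical and may share probes, so they are not separate measurements. The snoRNA SNORD114-14 had 11.60, 11.54, 11.90 and 13.60 and SNORA65 had 15.15, 14.80, 15.32 and 16.69, both chosen after their values were seen.

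The largest SD of any gene above the level, 3.01, was that of MIR3661, also chosen after its values were seen, with 7.73, 8.42, 11.46 and 14.28. Replicates 3 and 4 lay far above replicates 1 and 2, so this gene did not set replicate 4 alone apart. The RefSeq mature sequence is shown because no other analysed gene above the level varied as much between the cultures. It lies on GRCh38.p14 at chr5:134225777-134225798, plus strand, and is given 5′ to 3′ with its seed, bases 2 to 8, in capitals. Whether the array signal came from the mature miRNA or from another transcript of the locus was not tested.
hsa-miR-3661: uGACCUGGgacucggacagcug

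Protein-coding genes tended to be lower in replicate 4. Replicate 4 was the lowest array in 4983 of 9971, a share near the 45.4% of all genes above the level. It lay more than 0.5 below the mean of the other 3 arrays in 457 of the 9971 and more than 0.5 above it in 44. Over all 11883 genes above the level, these counts were 525 and 480. The 457 were shorter genes, with a median genomic span of 12171 bases, against 30629 for all 9971. The linker histone gene H1-4 had the largest SD among protein-coding genes, 1.56, with 17.29, 17.21, 16.75 and 14.01. EXOSC5, a subunit of the RNA exosome, had 10.37, 9.93, 9.40 and 7.28, and COX8A of cytochrome c oxidase had 16.60, 16.26, 16.14 and 14.42. In all 3 genes the signal fell in order from replicate 1 to replicate 4, and replicate 4 was by far the lowest. PSENEN, TMEM179B, COPE, ECH1, TUBB4B, OAZ1, VPS25, STOML2 and DCTPP1, also among the 15 of largest SD, had replicate 4 lowest too. H3-5, a histone H3 variant gene, had 4.78, 6.26, 5.19 and 4.56, again with replicate 4 lowest but with replicate 2 well above the others. It headed the 15 protein-coding genes of largest SD without replicate 4, with 0.76. Its replicates 1 and 4 lay below the olfactory receptor level of 4.83, so this spread was that of a gene near background.

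Of the functional lists, integrated stress response genes, which ATF4 activates when amino acids run short, spread widely. All 24 measured were above the level, and 22 were lowest in replicate 4, against 45.4% of all genes above the level. Their median SD was 0.26 with all arrays and 0.14 without replicate 4. CHAC1, a glutathione-degrading enzyme, had 8.61, 7.40, 7.79 and 6.24. PSAT1, an enzyme of serine synthesis, had 14.13, 13.49, 14.03 and 12.43. ASNS, asparagine synthetase, had 8.38, 7.99, 8.63 and 7.57, and ATF4 itself had 11.39, 11.17, 11.28 and 10.77. Replicates 1 and 3 were above replicate 2, and replicate 2 above replicate 4, in each of these 4 genes. The list's median deviations were 0.22, -0.03, 0.14 and -0.34 in replicates 1 to 4, so its members also differed among replicates 1 to 3.

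The 7 measured histone genes had a median SD of 0.39 with all arrays and 0.07 without replicate 4, and 6 of them were lowest in replicate 4. Ewing factors and EWS-FLI1-activated genes had median SDs of 0.10 and 0.11, close to the 0.11 of all genes above the level. Endoplasmic reticulum chaperones, with a median SD of 0.13, were lowest in replicate 4 in 3 of 17 genes. The part of gene span and gene class in the displacement of replicate 4 was not tested.

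**Figure D5:**
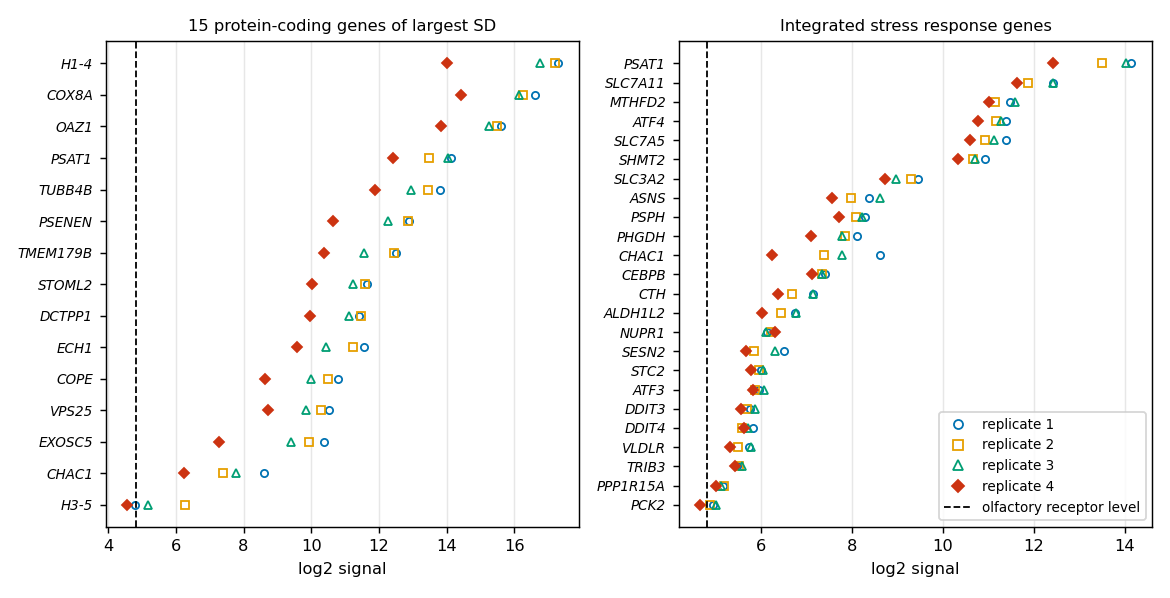
Log2 signal (x axis) in each control siRNA array for the 15 protein-coding genes of largest SD among those above the olfactory receptor level (left) and for the 24 measured integrated stress response genes (right), with that level as a dashed line. Replicate 4 is the lowest symbol in nearly every row, and H3-5 stands out with replicate 2 to the right.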

How the data were processed

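RNA of the SK-N-MC cultures was isolated with the mirVana kit and labelled with the GeneChip WT PLUS kit, per the labels' protocols. The authors deposited log2 signals per transcript cluster for 67528 clusters with 2 decimals. Per the submitters' processing notes these came from Transcriptome Analysis Console, whose version, summary and normalization method and genome build were not stated in the sources at hand. A summary over many probes compresses differences, above all near background. The number of arrays, 4, limits precision.

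From these, 23781 clusters with 1 gene symbol were kept, 1543 had several symbols and 42204 none. RefSeq (GRCh38.p14) supplied current names, matched by Entrez number for 21497 clusters, by symbol for 1974 and by synonym for 306, with 4 left unmatched. The 528 genes with several clusters were given the cluster of highest mean over the 4 arrays. Ranks, SDs and Dixon ratios were computed with Python 3.11.15, numpy 2.4.6 and pandas 2.3.3, and the spread step was tested on simulated data. Promoter sequences were matched by symbol for 13936 protein-coding genes. With 1 group there was no test between groups and no p-value.

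There were 39 gene lists with 857 genes, of which 754 were measured and 103 not analysed here. The cultures were given by the series, and the lists and members were chosen with earlier results of these data known. Named genes were picked from the highest and lowest members of each list and its lineage-defining genes, the 20 protein-coding genes of highest mean, and the 15 of largest SD with and without replicate 4, and not all of these are named. Alternatives were another background percentile, a level set on each array, other cluster choices, ranking of protein-coding genes only, median centring, quantile normalization, all genes for the spread, and leaving out each array.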

Additional observations from a re-analysis of the deposited data

Results flagged for a closer look

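Of the 98 genes whose values are given array by array, 7 had 1 array far from the other 3 by Dixon's ratio. Chance alone flags about 1 in 20 groups of 4, and 7.04% of all genes above the olfactory receptor level were marked. In 6 of the 7 the array was control replicate 4. It was low for TUBA1B (19.12), EEF1A1 (18.79) and the linker histone gene H1-4 (14.01), and the first pair of genes followed the array's maximum. It was high for the cytokine receptor LIFR (10.00), the proteoglycan DCN (8.34) and the adhesion molecule NCAM1 (5.51). In LOX the array apart was replicate 3, at 8.44. The causes were not tested.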

How the results depend on the processing

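The number of genes above the olfactory receptor level was 11883 and ran between 9792, with the 99th percentile of the olfactory receptors as the level, and 12076, without clusters on alternative haplotypes, an alternative chosen after seeing the data. The median SD was 0.107. With each array left out in turn it ran between 0.0777 without replicate 4 and 0.113 without replicate 2, and median centring of the arrays gave 0.117. The number of genes with an SD over 0.25 was 1484, and it was 749 with protein-coding genes only and between 595 and 1812 with each array left out in turn, lowest without replicate 4. With the 99th percentile as the level, the count of 9 lists moved by more than 1.5 times: mesodermal factors kept 5 of 12, other lineage factors 2 of 6, collagens 7 of 11, integrins 4 of 7, other neural genes 3 of 6, cartilage and bone genes 1 of 3, muscle genes 2 of 5, epithelial genes 4 of 9 and endothelial genes 1 of 2. The other 420 of 429 list counts stayed within 1.5 times. Of 977 ranks of single genes under an alternative, 77 moved by more than the spread between arrays, 65 of them when ranked among protein-coding genes only. The largest moves were SLC44A4 to 26.8 without haplotype clusters and ITGB1 to 69.1 with the mean of its clusters. No paired analysis was possible because only 1 group of samples is described.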

Other observations

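Gene classes outside the protein-coding genes differed in how many members lay above the olfactory receptor level. Of 1937 long non-coding RNA genes, 22.5% did, and of 1041 miRNA genes 30.1%. Of the 240 snoRNA genes 80.8% did, and of 24 small nuclear RNA genes 79.2%. Among 155 variable segments of immune receptor genes, which are used only by lymphocytes, the share was 16.8%.

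Stress and metabolic genes were largely above the level. All 12 heat shock genes measured were, with HSP90AB1 at a rank of 99.8, the chaperone HSPH1 at 98.6 and the inducible HSPA1A at 79.8. Of 24 glycolysis and hypoxia genes 21 were, led by GAPDH at 99.7 and ENO1 at 99.2, while the hypoxia-induced genes ADM and EGLN3 ranked at 25.2 and 14.2. Immediate early genes were above it in 11 of 19, with KLF6 at 81.1, JUN at 75.4, FOS at 57.7 and EGR3 at 3.2. Among autosomes, the share of protein-coding genes other than olfactory receptors above the level was highest for chromosome 14, at 67.1% of 520 genes, and lowest for chromosome 21, at 50.3% of 195.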
